A study of Danio rerio with 13 samples.

Results

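Ribosome biogenesis genes encode the proteins that transcribe, modify, cut and assemble ribosomal RNA before it leaves the nucleolus as a ribosomal subunit, and 44 of them were listed for the present description of leukemias driven by MYC. Listed symbols were matched in any letter case to the names of the Ensembl identifiers in a table of 32105 zebrafish genes. A single identifier was found for 43 of the 44 symbols, and pes had no match under that symbol. All 43 genes passed the filter on low counts, so no gene is missing from what follows because of a low level.

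MYC is a transcription factor whose best known targets include the machinery of ribosome production. RNA polymerase I makes the long precursor of ribosomal RNA, small nucleolar ribonucleoproteins (snoRNPs) of the box C/D and box H/ACA types guide its methylation and pseudouridylation, and many assembly factors fold and trim the precursors of the small and large subunits. The roles given below come from work in yeast and human cells. Ribosome production is also tied to cell growth, and for that reason the genes were set beside mitotic genes, ribosomal protein genes, and B and T cell genes.

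Poly(A) RNA of acute lymphoblastic leukemias (ALL) from double transgenic zebrafish, rag2:hMYC;lck:eGFP, was sequenced in 13 libraries. No source says whether each library came from a separate fish, so a leukemia below means a library. The rag2 promoter drives human MYC in lymphoid precursors, lck-driven eGFP marks lymphocytes, and the GFP-positive cells were sorted from the whole body of the fish. All 13 libraries carry both transgenes and form 1 group without a control, so the values describe how leukemias differ from each other and not what MYC changes. The human transgene was not analysed here, and the labels do not give the age of the fish. A letter in the sample description, c or d, divides the libraries; its meaning is not given, and results are also shown within each letter in case it marks a batch.

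The hMYC-1 column was left out. Its total of 51808498 counts lies close to the 51478946 counts of hMYC-10 to hMYC-14 added up, and among 792 sums of 5 other columns it fell below that sum for the smallest share of genes, 1.45% of 11072, against 9.59% for the next sum. The 12 columns used held 8166453 (hMYC-2) to 12297780 (hMYC-8) counts, 6 of them with the letter c and 6 with d. Levels are log2 CPM, that is counts divided by the library's total after TMM scaling, a method that compares libraries on their shared genes. One library stood apart in that scaling: the factor of hMYC-2 was 0.74, which raises its values by 0.44 on the log2 scale, and the other 11 factors lay between 0.964 and 1.09. Every level of hMYC-2 below carries that shift.

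The sorted cells were not of 1 lymphoid kind. The T score minus the B score (mean log2 CPM of 17 T and 13 B genes) was negative in hMYC-3, hMYC-4 and hMYC-5, with its lowest value of -2.67 in hMYC-5, and positive in the other 9 libraries, up to 6.97 in hMYC-11. The B cell receptor gene cd79a had 1729 to 3441 counts in those 3 libraries, 696 in hMYC-12 and 17 to 214 in the other 8. The B cell factor gene pax5 was at 0 counts in hMYC-11, and the T gene lef1 was at 0 in all libraries but hMYC-2 and hMYC-4. The T coreceptor genes cd4-1 and cd8a were counted in each library, with their fewest counts, 186 and 58, in hMYC-5. Genes of other blood cells were also read: 9 myeloid genes summed to between 343 and 847 CPM and 6 erythroid genes to between 3.38 and 164 CPM. The 19 matched T genes summed to between 1250 and 8420 CPM, and the 14 matched B genes to between 71.7 (hMYC-11) and 4470 CPM (hMYC-3). The B sum was above the myeloid sum in hMYC-3, hMYC-4, hMYC-5 and hMYC-12 and below it in the other libraries. Of the 6 erythroid genes, 5 had counts in 8 of the 12 libraries.

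The genes were read in every library. In sorted bulk cells a lower level can mean fewer cells with the transcript or less of it in each cell, and these cannot be told apart. The lowest count of any of the 43 was 57, for wdr74 in hMYC-2. Together they took between 0.869% (hMYC-10) and 1.30% (hMYC-13) of all counts. Their mean log2 CPM ranged from 6.73 in hMYC-10 to 7.35 in hMYC-13, a 1.54-fold difference between the lowest and the highest leukemia. The libraries hMYC-13, hMYC-2, hMYC-4, hMYC-5, hMYC-3, hMYC-9 and hMYC-11 lay between 7.10 and 7.35, and hMYC-12, hMYC-14, hMYC-6, hMYC-8 and hMYC-10 between 6.73 and 6.88. The map of the 43 genes by library shows the same order with many exceptions. Of the 43 genes, 18 were highest in hMYC-2 and 16 in hMYC-13, while 15 were lowest in hMYC-10 and 7 in hMYC-8. The place of hMYC-2 rests on the scaling: by library totals alone 6 genes were highest and 12 lowest there and its mean ranked 8, whereas hMYC-13 ranked 1 under both scalings, with 23 genes highest under library totals.

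**Figure D1:**
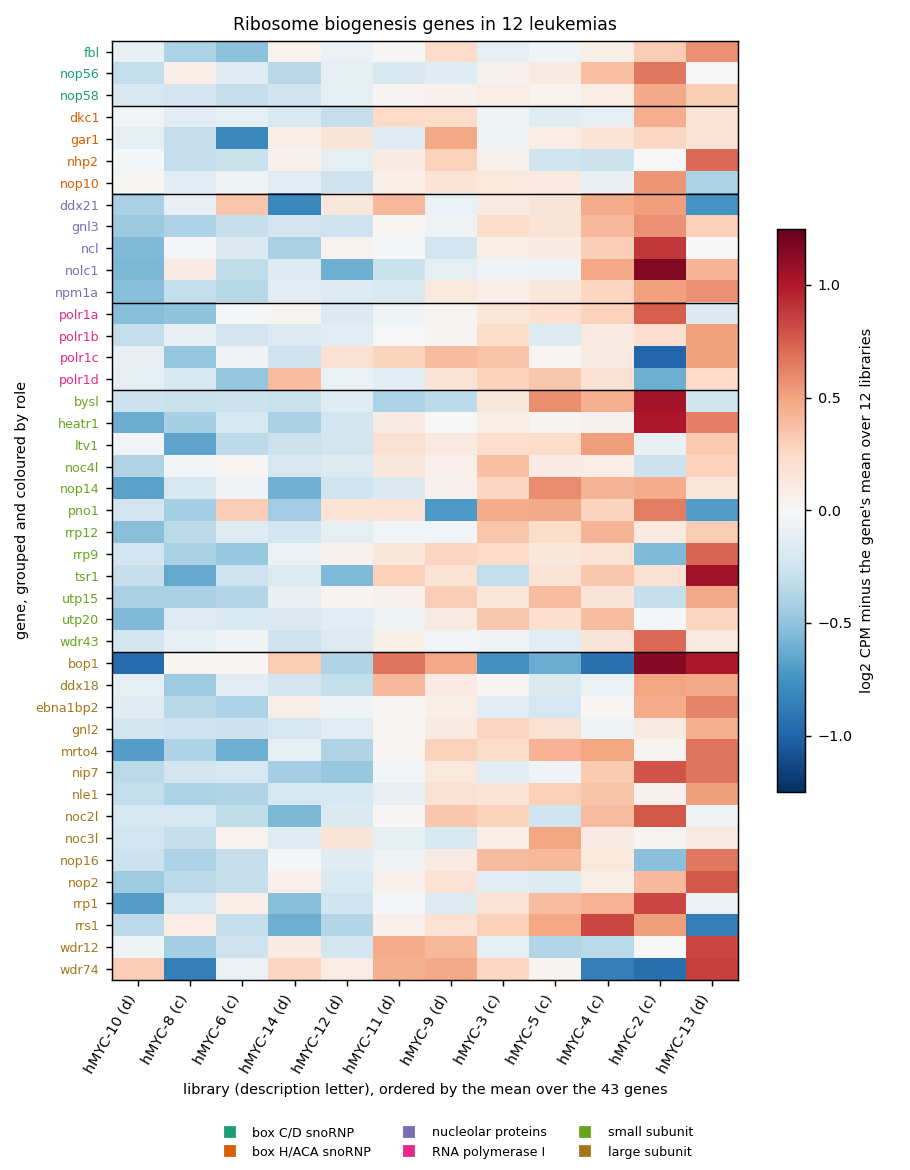
Log2 CPM of each of the 43 genes (rows, grouped and coloured by role) minus that gene's mean over 12 libraries, by library (columns, with the description letter, ordered by the mean over the 43 genes). Most genes are pale or blue from hMYC-10 to hMYC-12 and red in hMYC-13 and hMYC-2, and wdr74, polr1c and polr1d are blue in hMYC-2.

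The box C/D snoRNP proteins place methyl groups on ribosomal RNA, and their 3 genes were among the steadiest. The transcript of fbl (fibrillarin, the methyltransferase itself) had a lowest log2 CPM of 8.05 in hMYC-6, a median of 8.54 and a highest of 9.13 in hMYC-13. The level of nop56, a core scaffold protein, ran from 9.52 in hMYC-14 over a median of 9.81 to 10.53 in hMYC-2, and that of its partner nop58 from 8.63 in hMYC-6 over 8.96 to 9.40 in hMYC-2. The library hMYC-2 was high for all 3 genes and hMYC-13 for fbl and nop58, while nop56 in hMYC-13 (9.88) lay near its median; the distance between the lowest and the highest leukemia was 1.70- to 2.11-fold.

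Among the 4 box H/ACA genes, which encode the pseudouridylation machinery, the fold distance between libraries was 1.69 to 2.43. The pseudouridine synthase gene dkc1 lay between 8.09 (hMYC-12) and 8.85 (hMYC-2) log2 CPM with a median of 8.31. Its r with the partner genes was 0.60 for nop10, 0.54 for nhp2 and 0.33 for gar1. Their extremes lay in other libraries: nhp2 was highest in hMYC-13 (7.31) and lowest in hMYC-8 (6.30), nop10 was lowest in hMYC-13 (5.54) and highest in hMYC-2 (6.49), and gar1 had its lowest value in hMYC-6 (6.38) and its highest in hMYC-9 (7.66). The median pairwise Pearson r over the 6 pairs of these genes was 0.39 across 12 libraries.

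The 5 genes of abundant nucleolar proteins varied more. The transcript of ncl (nucleolin, an RNA-binding protein of the nucleolus) ran from 10.58 log2 CPM in hMYC-10 over a median of 11.13 to 12.02 in hMYC-2, where it stood well above the next library, hMYC-4 at 11.44. The gene nolc1, whose product is a chaperone of snoRNPs, showed the same pair on top, with 9.01 in hMYC-2 and 8.34 in hMYC-4 above a median of 7.76 and a lowest value of 7.25 in hMYC-12. The levels of npm1a (nucleophosmin, an assembly chaperone) were 8.97 in hMYC-10, 9.46 at the median and 10.07 in hMYC-13, and those of gnl3 (nucleostemin, a nucleolar GTPase) 7.42 in hMYC-10, 7.85 at the median and 8.44 in hMYC-2. The helicase gene ddx21 had another order, lowest in hMYC-14 (9.53) and hMYC-13 (9.58) and highest in hMYC-2 (10.85) over a median of 10.45. Thus hMYC-13, which was high for npm1a, was near the bottom for ddx21.

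Of the RNA polymerase I genes, the one for the largest catalytic subunit, polr1a, was lowest in hMYC-10 (6.96) and highest in hMYC-2 (8.24), with a median of 7.49. The second catalytic subunit gene, polr1b, stayed between 4.92 (hMYC-10) and 5.73 (hMYC-13). The other 2 subunits are shared with RNA polymerase III, and their genes were lowest where polr1a was highest: polr1c had 4.26 in hMYC-2 against a median of 5.31 and a highest value of 5.76 in hMYC-13, and polr1d had 3.89 in hMYC-2 against a median of 4.54 and a highest value of 4.88 in hMYC-14. The median pairwise r within the 4 genes was 0.21.

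The 12 small-subunit genes include parts of the processome that forms on the nascent precursor and factors that stay with it until the cytoplasm. The processome scaffold gene heatr1 ran from 7.24 (hMYC-10) over 7.87 to 8.86 log2 CPM (hMYC-2), and tsr1, whose product sits on the late precursor, from 6.20 (hMYC-8) over 6.84 to 7.89 (hMYC-13). The gene bysl, for a late assembly factor, stayed within 6.19 and 6.43 in 8 libraries and reached 6.72 in hMYC-3, 7.02 in hMYC-4, 7.16 in hMYC-5 and 7.62 in hMYC-2. These 4 libraries all carry the letter c, but hMYC-6 (6.31) and hMYC-8 (6.30), of the same letter, were among the 8 low ones. The libraries hMYC-3, hMYC-4 and hMYC-5 were also those with a negative T score minus B score, but hMYC-2, the highest for bysl, had a positive one of 5.02. The gene pno1, for an RNA-binding factor of the same precursor, was lowest in hMYC-9 (7.55) and hMYC-13 (7.57), had a median of 8.45 and was highest in hMYC-2 (8.90). The precursor-binding proteins of nop14 and noc4l work as partners, yet nop14 had a 2.39-fold distance between libraries (5.63 in hMYC-10 to 6.88 in hMYC-5) and noc4l 1.68-fold. The other processome and maturation genes, wdr43, utp15, utp20, rrp9, rrp12 and ltv1, ranged from 1.84-fold for utp15 to 2.43-fold for rrp9.

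The 15 large-subunit genes held both the steadiest and the most variable gene of all 43. The lowest SD of log2 CPM was that of noc3l, 0.22, whose values ran from 5.32 (hMYC-8) over 5.65 to 6.11 (hMYC-5). The highest SD was that of bop1, 0.74, with 6.37 in hMYC-10, a median of 7.35 and 8.46 in hMYC-2, a 4.27-fold distance. The bop1 protein works in a complex with wdr12 and pes, and wdr12 was lowest in hMYC-8 (5.80) and highest in hMYC-13 (7.06). Across 12 libraries r of bop1 with wdr12 was 0.68, while its median r with the other 42 genes was 0.19. The r of bop1 was higher with nop2 (0.73) and dkc1 (0.71), and similar with ddx18 (0.67). Low bop1 values were found in hMYC-10 (6.37), hMYC-4 (6.40), hMYC-3 (6.57) and hMYC-5 (6.71), so the 3 libraries with more B than T signal were among its 4 lowest. The gene wdr74, for a factor of the early large-subunit precursor, was the second most variable (SD 0.58): it had 3.27 in hMYC-2, 3.36 in hMYC-4 and hMYC-8, a median of 4.39 and 5.07 in hMYC-13. The gene rrs1, which helps to bring in a ribonucleoprotein of the large subunit, was lowest in hMYC-13 (6.10) and highest in hMYC-4 (7.79), the opposite end of the range from most genes in hMYC-13. The other 10 genes, nop2, nop16, gnl2, rrp1, ebna1bp2, nip7, ddx18, mrto4, nle1 and noc2l, had distances between 1.64-fold (gnl2) and 2.87-fold (rrp1).

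By SD the 43 genes varied less between leukemias than all genes kept, but their levels were also higher. Their median SD of log2 CPM was 0.343, against 0.551 over all 13663 genes kept, and 41 of the 43 lay below that gene median; bop1 and wdr74 lay above it. The median distance between the lowest and highest library was 2.28-fold, with 14 genes under 1 log2 unit, 28 between 1 and 2 units and bop1 above 2. Spread falls with expression, and the median level was 6.96 log2 CPM for the 43 genes against 4.19 over all genes kept. Each gene's biological coefficient of variation was therefore also divided by the value of edgeR's trend at its level. That ratio was below 1 for 43 of 43 genes, with a median of 0.589, but also for 10279 of all 13663 genes, whose median was 0.672. Other lists set the scale. The median SD of 99 further ribosome biogenesis genes was 0.348 and that of 70 ribosomal protein genes 0.318, whereas it was 0.829 for 47 mitotic genes, 1.64 for T genes and 3.36 for B genes. Within the letters the median SD of the 43 genes was 0.338 (c) and 0.281 (d).

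**Figure D2:**
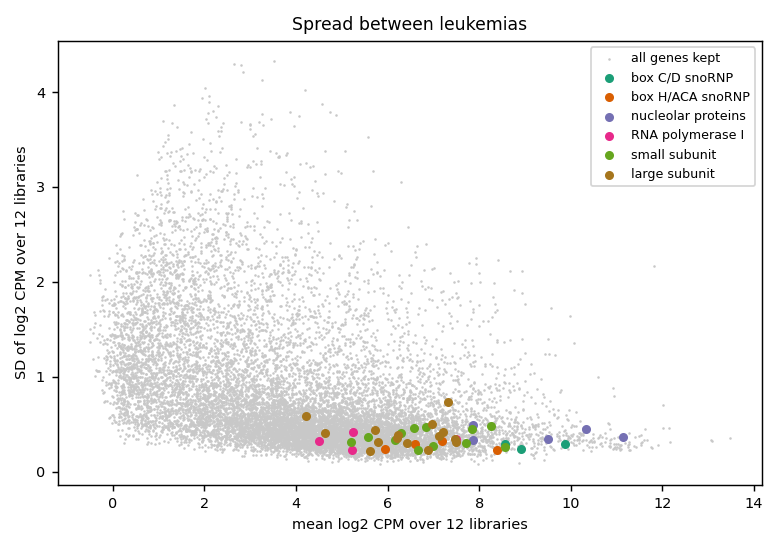
SD of log2 CPM over 12 libraries against mean log2 CPM, for all 13663 genes kept (grey) and the 43 genes coloured by role. Of the coloured points 41 lie below the median SD of all genes kept, 0.551, and bop1 at an SD of 0.74 and wdr74 at 0.58 lie above it.

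The genes moved together in part. Over their 903 pairs the median Pearson r of log2 CPM across 12 libraries was 0.448 and the median Spearman rho 0.469, against a median r of -0.0019 over pairs of all genes kept. An r above 0.5 was found for 398 pairs, 44.1%, against 10.6% of all gene pairs, and 137 of the 903 pairs were negative. The points of each pair share their libraries, depth and scaling, and the values are descriptions without a test. Ribosomal protein genes (median r 0.873) and mitotic genes (0.90) were far tighter, and the 99 further ribosome biogenesis genes were looser (0.273). The median r of the 43 genes was 0.557 within letter c and 0.677 within letter d, with 6 libraries each, and 0.52 without hMYC-2. Medians over all gene pairs in the same subsets lay between -0.0013 and 0.0020.

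Sharing a role added little. The median r was 0.471 over 196 pairs within a role and 0.442 over 707 pairs across roles. By role it was 0.74 for the nucleolar proteins, 0.71 for box C/D, 0.53 for the small subunit, 0.44 for the large subunit, 0.39 for box H/ACA and 0.21 for RNA polymerase I. The gene nop58 had the highest median r with the other 42 genes (0.70), followed by gnl3 (0.68) and heatr1 (0.66). The closest pairs were mrto4 with nle1, both for the large subunit (r = 0.957, rho = 0.965), and utp20 with rrp12, both for the small subunit (r = 0.956, rho = 0.951), and the pair of nhp2 and wdr12 crossed roles (r = 0.945). At the other end wdr74 (0.03), polr1c (0.06), pno1 (0.07), polr1d (0.12) and ddx21 (0.13) had the lowest median r. The most negative pair was nop56 with wdr74 (r = -0.72, or -0.59 without hMYC-2). The library hMYC-2 weighed on some negative pairs but not on others. The r of polr1d with wdr43 was -0.51 with it and 0.0008 without it, whereas r of nhp2 with pno1 was -0.55 with it and -0.61 without it.

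**Figure D3:**
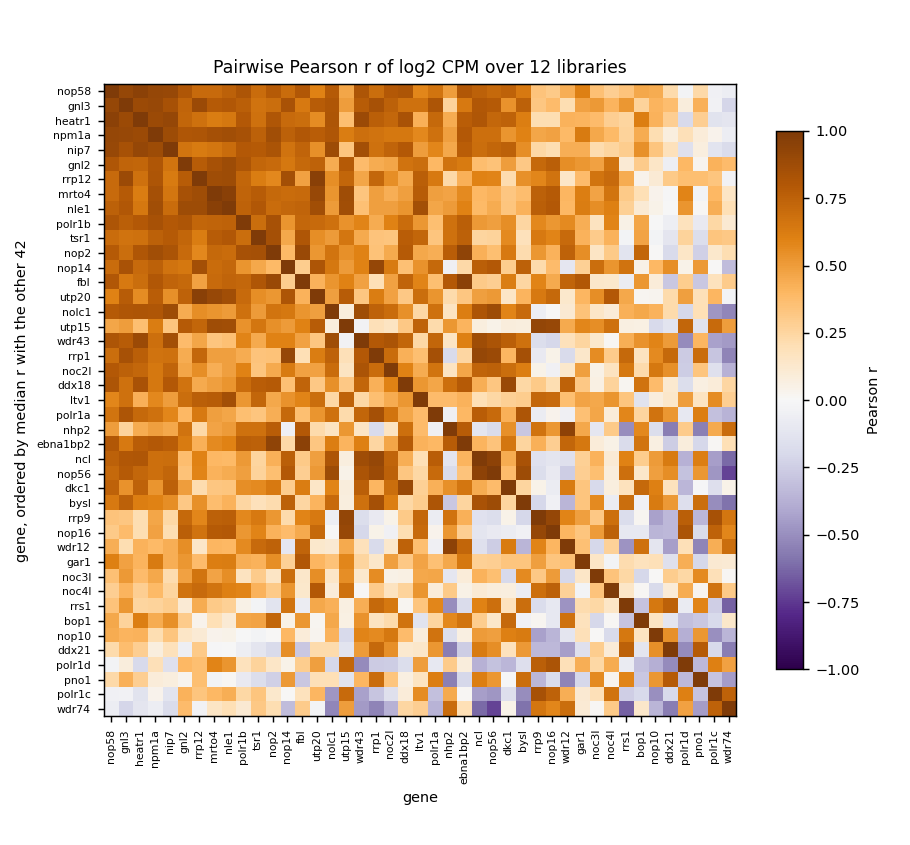
Pearson r of log2 CPM over 12 libraries for each pair of the 43 genes, ordered by each gene's median r with the other 42. The block from nop58 (median 0.70) downwards is mostly orange, and the last rows, ddx21, polr1d, pno1, polr1c and wdr74, are pale or purple against it.

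The first principal component of the 43 genes held 41.8% of their variance, with 41 genes on 1 side and polr1c and wdr74 on the other, and the second held 26.7%, with 15 genes against 28. The first component of all genes kept held a similar share, 40.1%; with each gene scaled to the same variance the shares were 46.3% for the 43 genes and 24.7% for all genes. On the first component hMYC-2 (2.97) and hMYC-13 (1.87) lay highest and hMYC-10 (-2.33) lowest. The second separated the same high libraries, hMYC-2 at 1.85 and hMYC-13 at -2.88. The genes with the largest weights for the hMYC-2 side were pno1 (0.27), rrs1 (0.27), ddx21 (0.26) and bysl (0.22), and for the hMYC-13 side wdr74 (-0.40), wdr12 (-0.26), polr1c (-0.23) and rrp9 (-0.22). Both libraries were the top pair for bop1, ddx18, ebna1bp2, fbl, heatr1, nip7, nop2, nop58 and npm1a. They stood at opposite ends for nop10, nop16, polr1c, rrp9 and wdr74, and at or next to opposite ends for ddx21, noc4l, pno1 and rrs1.

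Mitotic genes were the first measure set against the 43 genes. The mitotic score, the mean log2 CPM of 47 genes such as those of spindle and cyclin proteins, ran from 3.39 in hMYC-4 to 6.60 in hMYC-8. The most mitotic library, hMYC-8, had the second lowest mean of the 43 genes (6.76), and the least mitotic, hMYC-4, the third highest (7.21). The next libraries went the other way: hMYC-13, second most mitotic (5.49), had the highest mean (7.35). The second least mitotic, hMYC-6 (4.45), had a low mean (6.82). In edgeR's quasi-likelihood test over all genes, with Benjamini-Hochberg adjustment at 0.05, 0 of the 43 genes were called with the mitotic score, where 1.63% of all genes were. At an unadjusted p under 0.05 there was 1 gene, ltv1, with a slope of -0.27 ± 0.12 (SE) log2 units per unit of score. It had the lowest adjusted p of the 43, 0.758. At the same unadjusted limit 622 of all genes rose and 188 fell with the score. DESeq2's Wald test also called 0 of the 43 and 2.58% of all genes. Slopes were negative for 36 of 43 genes, with a median of -0.11 against -0.01 over all genes. Without hMYC-8 the median was -0.02 with 24 genes negative, and with library totals as the scaling -0.03 with 26 negative. The sign of the median differed between the letters, at -0.13 in c and 0.26 in d. None of 99 further ribosome biogenesis genes was called by edgeR either, with 1 higher and 6 lower at an unadjusted p under 0.05.

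**Figure D4:**
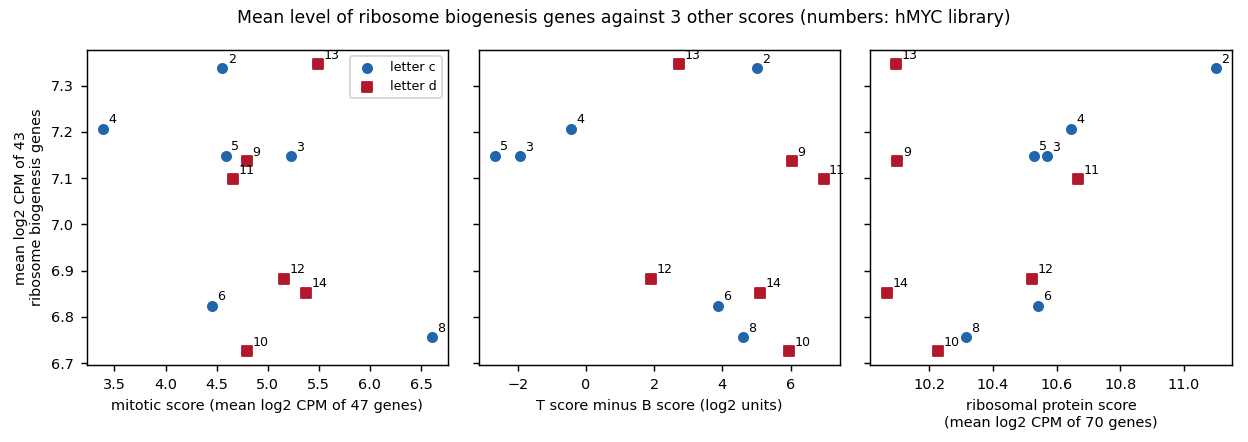
Mean log2 CPM of the 43 genes in each of 12 libraries against the mitotic score (left), the T score minus the B score (middle) and the ribosomal protein score (right), with the letter by colour and shape and the hMYC number beside each point. The library hMYC-8 is far right and low in the left panel, and hMYC-13, second from the right there, is at the top. In the right panel hMYC-13 and hMYC-2 share the top at opposite ends of the ribosomal protein score, 10.10 and 11.10.

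Leukemias with more B signal lay within the range of the others. The mean of the 43 genes was 7.15 in hMYC-3 and hMYC-5 and 7.21 in hMYC-4, the libraries whose T score minus B score was negative, and 6.73 to 7.35 in the other 9, so the ranges overlap. With that difference as the measure, edgeR called 0 of the 43 genes, where 12.8% of all genes were called. At an unadjusted p under 0.05, 1763 of all 13663 genes had positive and 1870 negative slopes. Of the 43 genes, 6 passed that limit, a smaller share: noc3l, rrp12, nop14, utp20 and nop16 with negative slopes and bop1 with a positive one. The lowest adjusted p was that of noc3l, 0.0821, with a slope of -0.06 ± 0.02 (SE); bop1 had 0.14 ± 0.06 (SE) with an adjusted p of 0.134. DESeq2 called 1 of the 43, noc3l, and 21.1% of all genes. Without hMYC-2 edgeR called 2 of the 43, bysl and nop14, and without hMYC-10 it called 1, bop1. With the letter as a covariate or in letter c alone it called 1, nop16. The share of all genes called in these fits is not given here, so these calls do not set the named genes apart. Of the 99 further genes edgeR called 3: tcof1, for a nucleolar factor of RNA polymerase I, fell with the T side (-0.14 ± 0.03, adjusted p = 0.00885), as did tsr2, for a ribosomal protein chaperone (-0.14 ± 0.03, adjusted p = 0.0107), and senp3a, for a SUMO protease, rose (0.12 ± 0.03, adjusted p = 0.0357).

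The ribosomal proteins are the parts that the assembly factors put together, and their score ran from 10.07 in hMYC-14 to 11.10 in hMYC-2. With it edgeR called 3 of the 43 genes, pno1, ddx21 and ncl, all higher where ribosomal protein genes were higher. Of all genes 1.41% were called in that direction and 2.1% in either. The 193 genes called higher include 62 of the 70 ribosomal protein genes that make up the score. The slope of pno1 was 1.42 ± 0.25 (SE) log2 units per unit of score with an adjusted p of 0.0149. For ddx21 it was 1.27 ± 0.25 with an adjusted p of 0.027, and for ncl 0.99 ± 0.21 with an adjusted p of 0.034. The values described above lie behind it: pno1 was at 7.55 to 8.03 in hMYC-9, hMYC-13, hMYC-14, hMYC-8 and hMYC-10, whose ribosomal protein scores of 10.07 to 10.32 were the 5 lowest, and at 8.44 to 8.90 in the other 7. The ddx21 values of the same 5 libraries were its 5 lowest too, 9.53 to 10.25. An unadjusted p under 0.05 was found for 12 genes, 11 with positive slopes and wdr74 with a negative one (-1.16 ± 0.49, adjusted p = 0.213). At that limit 1291 of all 13663 genes had positive and 1416 negative slopes. DESeq2 called 7 of the 43, adding bysl, nop56, rrp1 and wdr43, where it called 10.5% of all genes. Box C/D, box H/ACA, RNA polymerase I and large-subunit genes had no edgeR call. With 2.1% of all genes called, that does not set these roles apart.

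**Figure D5:**
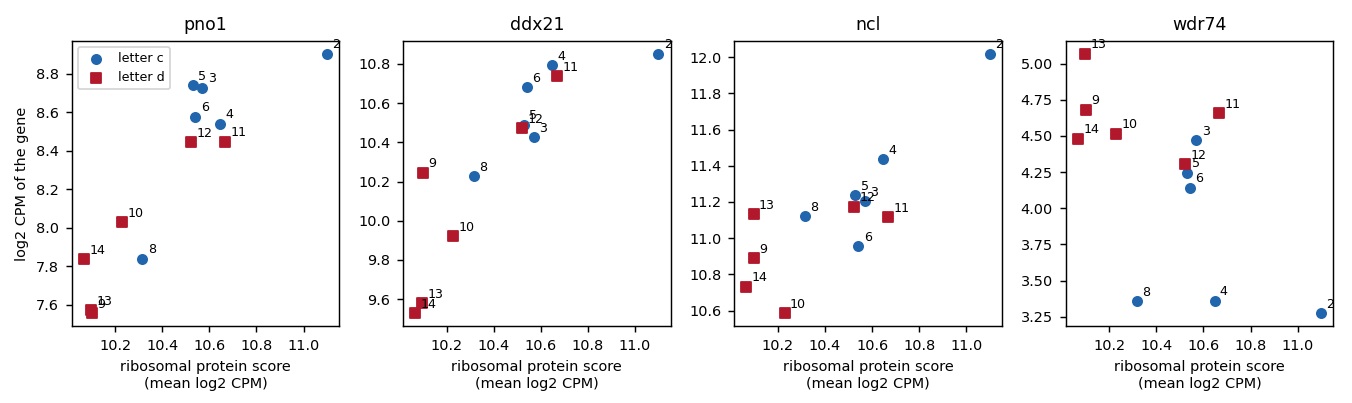
Log2 CPM of pno1, ddx21, ncl and wdr74 (each panel on its own scale) in 12 libraries against the ribosomal protein score, with the letter by colour and shape and the hMYC number beside each point. The first 3 are the genes called by edgeR, and ncl reaches 12.02 in hMYC-2 alone; wdr74, drawn because its slope was negative at an unadjusted p under 0.05, was chosen after its values were seen.

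The slopes of these 3 genes stayed positive under each alternative run, but their calls did not hold under all of them. The ribosomal protein score differed between the letters, at 10.62 ± 0.26 (SD, n = 6) in c and 10.28 ± 0.25 (SD, n = 6) in d, and with the letter as a covariate edgeR called 0 of the 43, with 0.578% of all genes called. The slopes of pno1, ddx21 and ncl were then 1.24, 1.19 and 0.91, with adjusted p-values of 0.146, 0.174 and 0.221. Within letter c the slopes of the 3 genes lay between 0.73 (ddx21) and 1.28 (ncl) and within letter d between 0.48 (ncl) and 1.60 (ddx21); edgeR called 0 of all 13663 genes in either letter, so 6 libraries say nothing about single calls. Without hMYC-2 the slope of ncl was 0.63 with an adjusted p of 0.264, while pno1 and ddx21 were still called. Leaving out hMYC-4, hMYC-9, hMYC-10, hMYC-12, hMYC-13 or hMYC-14 left 1 call each, and leaving out hMYC-11 gave 5, with bysl and rrp1 added. For these fits with a library left out, the share of all genes called is not given here. With library totals as the scaling edgeR called 0 of the 43 and 0 of all genes, without the filter on low counts 0 of the 43 and 2 of 26058, and with the mitotic score as a covariate 0 of the 43 and 0.607% of all genes. The slope of pno1 in these fits was 1.85, 1.47 and 1.33. The score of 10 immediate early genes, which answer to the handling of cells, was low in hMYC-10 (5.63), hMYC-13 (5.78) and hMYC-9 (6.58), where ribosomal protein scores were low, but 7.95 in hMYC-14 and 7.56 in hMYC-8, where they were low too, and 5.85 in hMYC-11, where the ribosomal protein score was the second highest (10.67). Its part in the result was not tested. Of the 99 further ribosome biogenesis genes edgeR called 5 higher and 2 lower; the 5 with the lowest adjusted p were NSA2, nop53, GTPBP4, nufip1 and RSL24D1, with slopes from 1.02 (GTPBP4) to 1.31 (nufip1). The 2 called lower, named after their values were seen, were RUVBL1 (-1.24 ± 0.27, adjusted p = 0.0420) and WDR18 (-1.08 ± 0.24, adjusted p = 0.0427).

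The fish have MYC genes of their own, and the name table gives the symbol MYC to 2 identifiers without telling them apart. The first, ENSDARG00000007241, ran from 3.29 log2 CPM in hMYC-10 to 7.37 in hMYC-2, and the second, ENSDARG00000045695, from 3.27 in hMYC-10 to 7.32 in hMYC-12. The library hMYC-10, lowest for both, was also the lowest for the mean of the 43 genes, but hMYC-13, the highest for that mean, had only 4.11 and 4.18. With the first identifier edgeR called 0 of the 43 genes and 0.0293% of all genes. At an unadjusted p under 0.05 it found 2 of the 43, wdr74 falling (slope -0.29) and ncl rising (0.18). Of all 13663 genes, 1082 rose and 711 fell at that limit. DESeq2 called 0 of the 43 and 4.14% of all. With the second identifier edgeR called 0 of the 43 and 8.34% of all genes. At an unadjusted p under 0.05 it found wdr12 and nhp2, both falling (-0.20 and -0.12), where 2017 of all genes rose and 1205 fell. DESeq2 called 1, wdr12, and 15.7% of all. The edgeR slope of wdr12 was -0.20 ± 0.06 (SE) with an adjusted p of 0.0614. The gene was called without hMYC-2, which gave 1 call, and without hMYC-10, which gave 2 with bop1. How many of all genes were called in these fits is not given here. Among the 99 further genes edgeR called 2 with the second identifier, both lower: RIOK2, for a kinase of the late small-subunit precursor (-0.20 ± 0.05, adjusted p = 0.0331), and nol11, for a processome protein (-0.20 ± 0.05, adjusted p = 0.0393). B cell genes (8 of 13 called higher, median slope 1.63) and immediate early genes (3 of 10 called higher, median slope 0.54) moved with the same identifier. Of 17 T genes 2 were called higher and 0 lower, with a median slope of -0.27, and of 9 myeloid genes 1 was called higher. With the difference of T and B scores as a covariate, edgeR called 98 of all genes with the second identifier in place of 1140, and 0 of the 43. Why fewer genes were called in that fit was not tested.

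Between the letters the mean of the 43 genes was 7.07 ± 0.23 (SD, n = 6) in c and 7.01 ± 0.23 (SD, n = 6) in d. The ranges of all 43 genes overlapped between the letters. Overlap was not counted over all genes, so it does not set the 43 apart. EdgeR called 0 of the 43, where 0.344% of all genes were called. At an unadjusted p under 0.05, 1610 of all 13663 genes were lower and 1184 higher in d. A similar share of the 43 passed, 9 genes: rrp1, bysl, rrs1, nop56, nop14 and pno1 lower in d, and wdr12, wdr74 and nhp2 higher. The lowest adjusted p was that of rrp1, 0.129, with a difference of -0.59 ± 0.18 (SE) log2 units, d minus c, and means of 7.50 in c and 6.93 in d. DESeq2 called 2 of the 43, rrp1 lower and wdr74 higher in d, and 8.48% of all genes. The letters also differed in the T score minus the B score, 1.41 ± 3.48 (SD, n = 6) in c and 4.79 ± 2.01 in d, so a letter and a lymphoid kind cannot be fully told apart here.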

How the data were processed

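Raw counts per Ensembl gene were deposited by the authors in 1 table with 13 columns, each matched to a sample title. The submitters' processing notes name bcl2fastq, STAR, Picard, featureCounts and GRCz10; the annotation release and the strand setting of counting are not given in the sources used here, so counts are uncertain for genes that overlap, lie antisense to each other or have near-identical copies. Per the labels' protocols, a stranded TruSeq kit was used on poly(A) RNA. No source says whether the samples came from separate fish, so p-values measure the spread between these samples.

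The members and gene lists were chosen with earlier results of these data known. A gene name table named 26269 of 32105 identifiers; a symbol shared by several identifiers entered no score. All 43 genes, and up to 5 further genes of a list with the lowest adjusted p in a comparison, may be named. Levels are log2 CPM with TMM factors and a prior count of 2, and a score is the mean over its list. Tests used edgeR 4.0.16 (R 4.3.3, limma 3.58.1): filterByExpr by letter kept 13663 genes, and quasi-likelihood F tests (two-sided, 1 measure in the model) were adjusted by Benjamini-Hochberg at 0.05. The genes behind a score are among the genes tested. DESeq2 1.42.0, other scalings, other filters, covariates, each letter alone and each library left out were alternatives. The tests were checked on simulated data. Fits on the fish genes myca and mycb by name were planned but not run, because the name table calls 2 identifiers MYC. For that case the plan foresaw fits on the identifiers that RefSeq pairs with those names. Fits on each identifier called MYC were run instead, a choice made after the data were seen. The symbol rps19bp1 was kept out of the ribosomal protein list. No promoter or protein sequences were used here. Descriptions used Python 3.11.15, numpy 2.4.6, pandas 2.3.3, scipy 1.17.1 and matplotlib 3.10.9.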

Additional observations from a re-analysis of the deposited data

How the results depend on the processing

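Of 249 alternative values, 186 kept their call or moved by less than the limit set for a count, a spread or a median r. Of the rest, 27 counts moved, 36 slopes of single genes lost their call, and 0 changed direction. The limit was the SD over pairs, 0.35, for the median r and the SD over genes, 0.106, for the median SD. A count that stayed at 0 was taken as unmoved however few of all genes the fit called. With such wide limits the 186 do not measure how firm the results are. The count of the 43 genes called with the ribosomal protein score, 3 under edgeR, was 0 with library totals, without a filter, with hMYC-1 included, with the letter or the mitotic score as a covariate, and in letter c or letter d alone, 7 under DESeq2, and 1 to 5 with single libraries left out; the slopes behind it stayed positive, at 1.31 to 1.77 for pno1, 1.12 to 1.67 for ddx21 and 0.627 to 1.15 for ncl with single libraries left out. On the T minus B measure the count of 0 became 1 under DESeq2, with the letter as a covariate and in letter c alone, and 0 to 2 with single libraries left out. Between letters it was 2 under DESeq2 and 0 to 0 with libraries left out, and with the mitotic score and with the first MYC identifier it was 0 throughout. With the second identifier it was 1 without a filter, with a mean count of at least 10, under DESeq2 and with hMYC-1 included, and 0 to 2 with libraries left out. No share of all genes stands beside the counts in this section, so none is read as a result about the 43 genes. The median difference of the 43 genes between letters, -0.06 under TMM, was 0.0085 under upper quartiles and 0.073 under library totals. The median SD was 0.305 to 0.355 and the median pairwise r 0.413 to 0.523 with libraries left out; within single letters, an alternative added after the data were seen, they were 0.281 to 0.338 and 0.557 to 0.677. No paired analysis was possible because the libraries form 1 group.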

Other observations

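The listed symbol pes had no match, but the name table gives 1 identifier the symbol PES1, the partner of bop1 and wdr12. Its mean log2 CPM over 12 libraries was 7.34 with an SD of 0.27, below the 0.74 of bop1 and the 0.39 of wdr12. In edgeR's quasi-likelihood tests it was called with none of the measures, its lowest adjusted p being 0.252, between the letters, with a difference of 0.31 ± 0.15 (SE) log2 units, d minus c, and an unadjusted p of 0.0530.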
